A study of Mus musculus with 6 samples.

Results

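The 10 genes described here belong to the antioxidant and glutathione synthesis response and were followed in the jejunum of irradiated mice. They are Gclc, Gclm, Gss, Gsr, Gpx1, Gpx2, Txnrd1, Srxn1, Nqo1 and Idh1. The genes were chosen by name, with earlier results of these data known. All probes that the platform annotation gives to them were taken from the intensity table. Of the 10 genes, 9 had a named probe, with 15 probes among the 45281 on the array, and Gsr, which encodes glutathione reductase, was not analysed here because no named probe was found for it. The samples were jejunum RNA of 6 male C57BL/6J mice aged 8 weeks. Every mouse received 9 Gy of total body irradiation (TBI) and, directly afterwards, an intraperitoneal injection of 0.1 mM protein, and tissue was taken at 12 h. In 3 mice the protein was enhanced green fluorescent protein alone (EGFP-treated mice, the controls). In the other 3 it was NeuroD-EGFP, the transcription factor NeuroD fused to that protein and made as a recombinant protein. No unirradiated mouse was on these arrays, so the comparison addresses what NeuroD-EGFP did to irradiated jejunum and holds no measure of what irradiation did to these genes.

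NRF2, encoded by Nfe2l2, is a transcription factor that the adaptor protein KEAP1 holds at low levels in resting cells by sending it for degradation. Oxidants and electrophiles free it, and it then binds antioxidant response elements together with small MAF proteins and switches on genes that make glutathione, reduce peroxides and supply NADPH. Irradiation produces reactive oxygen species in tissue, and the intestinal epithelium also uses these enzymes against food-borne and microbial oxidants. The 10 genes divide by role. Gclc and Gclm encode the catalytic and modifier subunits of glutamate-cysteine ligase, the rate-limiting enzyme of glutathione synthesis, and Gss encodes glutathione synthetase, which completes the tripeptide. Gpx1 and Gpx2 encode selenium-containing glutathione peroxidases, the latter typical of the gut epithelium. Txnrd1 encodes cytosolic thioredoxin reductase, Srxn1 encodes sulfiredoxin, which repairs over-oxidised peroxiredoxins, Nqo1 encodes a quinone reductase, and Idh1 encodes the cytosolic isocitrate dehydrogenase that yields NADPH.

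Because the genes are grouped by their link to NRF2, the 250 bases before each annotated start were searched on both strands for the core of the antioxidant response element, TGACNNNGC, and for the AP-1 core, TGANTCA, which is contained in some longer forms of the element. The windows came from RefSeq (GRCm38.p6), which held 11 windows for 8 of the 10 genes. The 3 windows that held a match are shown to place these letters, with the matches in capitals and positions counted back from -1, the base before the start. Srxn1 (chr2:152105274-152105523, plus strand) held 2 AP-1 cores, at -102 to -96 and at -45 to -39. Gclm (chr3:122245307-122245486, plus strand) held 1 response element core on the reverse strand at -134 to -126, counted from the end of its full 250-base window. The last 70 bases of that window lie inside the annotated span of the gene and are not printed. The positions of Gclm therefore do not count from the end of the printed sequence or from the first base of the annotated gene span. Txnrd1 (chr10:82858956-82859205, plus strand, before the second of its 3 annotated starts) held 1 response element core on the reverse strand at -92 to -84.
Srxn1: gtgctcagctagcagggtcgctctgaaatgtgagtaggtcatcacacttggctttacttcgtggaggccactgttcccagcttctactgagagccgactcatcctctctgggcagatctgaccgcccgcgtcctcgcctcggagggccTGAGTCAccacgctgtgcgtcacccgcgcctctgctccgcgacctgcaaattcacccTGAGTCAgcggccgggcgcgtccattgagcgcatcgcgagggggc
Gclm: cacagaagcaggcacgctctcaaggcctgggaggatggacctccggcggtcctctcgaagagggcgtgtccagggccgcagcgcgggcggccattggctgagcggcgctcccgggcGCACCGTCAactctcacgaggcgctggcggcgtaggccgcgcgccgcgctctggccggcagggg
Txnrd1: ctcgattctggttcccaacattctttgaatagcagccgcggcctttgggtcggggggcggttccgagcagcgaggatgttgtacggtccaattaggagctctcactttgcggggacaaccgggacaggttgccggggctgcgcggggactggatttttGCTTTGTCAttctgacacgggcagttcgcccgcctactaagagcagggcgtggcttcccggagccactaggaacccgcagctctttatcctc
Of all 32851 windows, 10.2% held the response element core, 6.75% the AP-1 core and 0.338% held 2 or more AP-1 cores, as Srxn1 did. The letters were not found in the windows of Nqo1, Gss, Gpx1, Gpx2 and Idh1, and Gclc and Gsr had no window. Bases farther from the starts were not searched, so a missing match does not show that a gene lacks the element. The matches found describe the sequence and are not evidence of binding.

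Levels are log2 intensities after background correction and quantile normalization across the 6 arrays, and every difference is NeuroD-EGFP minus EGFP. Detection p-values set the signal of a probe against the negative control beads of the same array, and those under 0.05 count as detected. All 15 probes were detected on at least 3 arrays and were tested, and 14 of them were detected on all 6. Tests were made with limma over all 19099 tested probes with Benjamini-Hochberg adjustment, and each of 10777 genes is described by its brightest tested probe. The arrays detected between 18271 and 20408 probes. No probe of any gene passed an adjusted p of 0.05 (0% of 19099 probes), the smallest adjusted p was 0.4, and 954 probes had an unadjusted p under 0.05.

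EGFP mouse 3 departed from the label of jejunum in its epithelial markers. Lct, which encodes lactase, the disaccharidase of the jejunal brush border, was not detected in EGFP mouse 3 (log2 4.56) and lay between 12.14 and 13.26 in the other 5 mice. Apoa4, an apolipoprotein made by absorptive cells, was 11.17 in this mouse and 14.46 to 14.66 in the others. Fabp6, the bile acid binding protein known from the ileum and looked up here after its values had been seen, was 14.26 in EGFP mouse 3 and 4.38 to 5.79 in the others. Slc10a2, another gene known from the ileum and looked up in the same way, was not detected in any mouse. Its level was 5.26 in EGFP mouse 3 and 4.48 to 4.82 in the others. Vil1, a structural gene of the brush border, was 13.45 to 13.83 in all 6 mice. The mean of the enterocyte markers (9 of 10 listed were tested), set against its mean over the 6 mice, was -1.43 in EGFP mouse 3 and 0.19 to 0.40 in the others on the log2 scale. That low mean came from part of the list, namely Lct, Apoa4, Fabp1 (4.97 in this mouse) and Alpi (10.85). Sis (14.49), Cdh17 (10.71), Krt20 (13.90) and Vil1 lay within the range of the other mice. Apoa1 was 14.33 against 14.36 to 14.53. On the same scale the smooth muscle list stood at 1.02, the Paneth cell list at 0.63 and the goblet cell list at 0.55 in EGFP mouse 3, each its highest value among the 6 mice. EGFP mouse 1 stood apart in another way, with an interferon-stimulated gene list at 1.73 against -0.90 to 0.18 in the others. Results below are therefore given with all 6 mice and also without EGFP mouse 3, which leaves 2 EGFP-treated mice. In whole tissue, fewer cells of a type and less RNA per cell cannot be told apart.

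Of the 9 measured genes, Idh1 was the only one whose groups did not overlap. It was lower in every NeuroD-EGFP-treated mouse than in any EGFP-treated mouse, by 0.59 on the log2 scale, and this did not pass the adjusted threshold. Gclm was 0.26 higher, and the remaining 7 genes had differences from -0.29 to -0.018, each with a 95% confidence interval that holds 0. The median over the 9 genes was -0.15, beside 0.0047 over all 10777 genes, of which 49.2% had a negative difference. At an unadjusted p under 0.05, 1 of 9 genes was lower and 0 were higher, where 2.56% of all genes were lower and 2.20% higher. For groups that do not overlap the counts were likewise 1 lower and 0 higher, where 5.93% of all genes were lower and 5.44% higher. No member passed an adjusted p of 0.05.

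**Figure D1:**
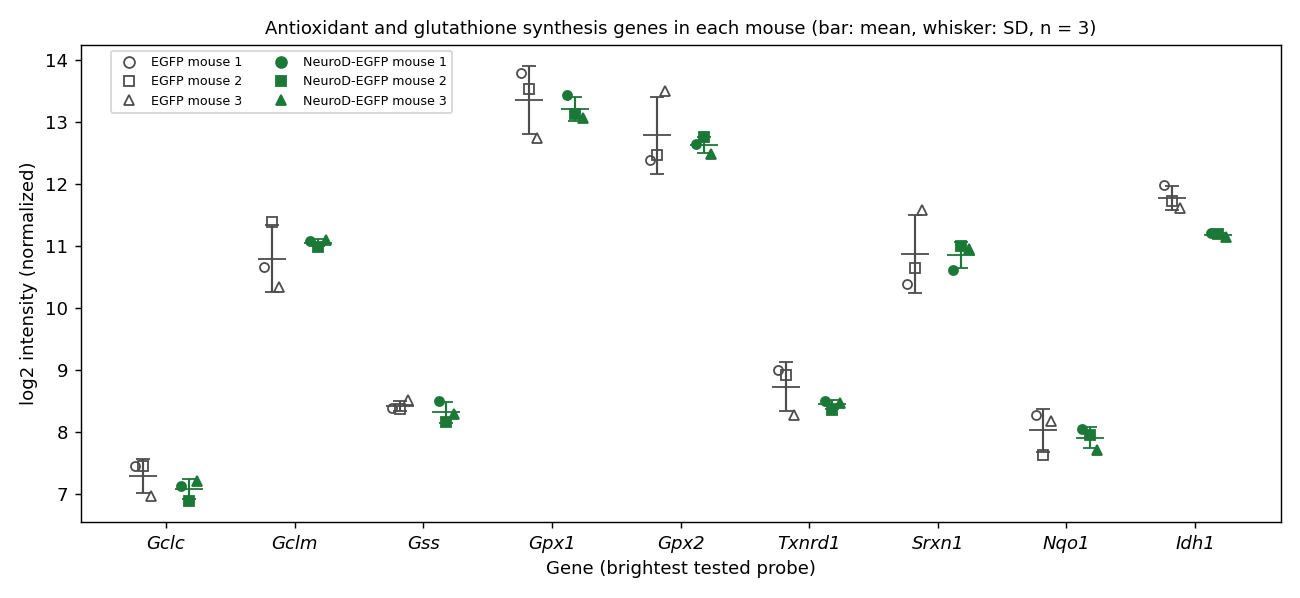
Normalized log2 intensity (vertical axis) of the brightest probe of each of the 9 measured genes (horizontal axis) in each mouse. Open grey symbols are EGFP-treated mice and filled green symbols NeuroD-EGFP-treated mice, with the mean as a bar and the SD as whiskers (n = 3). The groups are apart only for Idh1, at 11.62 to 11.99 against 11.15 to 11.21, and EGFP mouse 3 (open triangle) is the highest or lowest of all mice for Gss, Gclm, Gpx1, Gpx2, Txnrd1 and Srxn1.

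Glutathione synthesis was read by 3 genes. For Gclc, the catalytic subunit, the EGFP-treated mice 1 to 3 had log2 levels of 7.45, 7.46 and 6.98, and the NeuroD-EGFP-treated mice 7.14, 6.90 and 7.21. EGFP mice 1 and 2 were above all 3 NeuroD-EGFP-treated mice and EGFP mouse 3 fell among them, so the groups overlapped. The difference was -0.22 (SE 0.18, 95% confidence interval -0.65 to 0.22, limma adjusted p = 0.93). Without EGFP mouse 3 it was -0.38 (SE 0.15), with an unadjusted p of 0.045 and a limma adjusted p of 0.35. Other mice moved it the other way, to -0.14 without EGFP mouse 1 and to -0.13 without EGFP mouse 2 or without NeuroD-EGFP mouse 2.

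Gclm, the modifier subunit, was the one member with a positive difference. Its levels were 10.66, 11.40 and 10.35 in the EGFP-treated mice and 11.09, 10.99 and 11.10 in the NeuroD-EGFP-treated mice. EGFP mouse 2 was the highest of all 6 and EGFP mouse 3 the lowest, while the NeuroD-EGFP-treated mice lay within 0.11 of each other. The difference of 0.26 (SE 0.26, 95% confidence interval -0.36 to 0.88, limma adjusted p = 0.95) was 0.033 without EGFP mouse 3 and 0.56 (SE 0.16, limma adjusted p = 0.5) without EGFP mouse 2, with an unadjusted p of 0.013 in the latter setting. The size of the difference thus depended on which control was left out. Neither subunit of the ligase passed an adjusted p of 0.05 in any of these settings.

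Gss was read by 4 probes. Its brightest probe had levels of 8.39, 8.38 and 8.52 in the EGFP-treated mice and 8.51, 8.17 and 8.29 in the NeuroD-EGFP-treated mice, a difference of -0.11 (SE 0.15, limma adjusted p = 0.96). The other 3 probes differed by -0.28 (SE 0.20), -0.11 (SE 0.22) and -0.15 (SE 0.15). All 4 probes were negative and overlapped between groups, and all 4 were highest in EGFP mouse 3. Without that mouse the 4 differences lay between -0.11 and 0.037.

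The peroxidases Gpx1 and Gpx2 were set apart by EGFP mouse 3 in opposite directions. Gpx1, the cytosolic enzyme found in nearly all cells, had levels of 13.79, 13.54 and 12.75 in the EGFP-treated mice and 13.44, 13.13 and 13.07 in the NeuroD-EGFP-treated mice. EGFP mouse 3 was the lowest of the 6, by 0.65 from the mean of the other 5 (1.56-fold lower), and 7% of all genes lay as far or farther below in this mouse. The difference between groups was -0.15 (SE 0.28, 95% confidence interval -0.80 to 0.51, limma adjusted p = 0.97). Without EGFP mouse 3 it was -0.45 (SE 0.18, limma adjusted p = 0.33), with an unadjusted p of 0.037. Without EGFP mouse 2 it was -0.059 and without EGFP mouse 1 it was 0.068, so the sign rested on EGFP mouse 1.

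Gpx2, the gastrointestinal enzyme, had levels of 12.40, 12.47 and 13.50 in the EGFP-treated mice and 12.65, 12.76 and 12.49 in the NeuroD-EGFP-treated mice. Here EGFP mouse 3 was the highest, 1.93-fold above the mean of the other 5, and 3.16% of all genes lay as far or farther above in this mouse. The difference between groups was -0.16 (SE 0.30, limma adjusted p = 0.97) with all mice and 0.20 (SE 0.15, limma adjusted p = 0.61) without EGFP mouse 3. In the latter setting all NeuroD-EGFP-treated mice were above both remaining controls, the closest pair by 0.021.

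Txnrd1, like Gclc and Gpx1, was highest in EGFP mice 1 and 2. Its levels were 9.00, 8.92 and 8.28 in the EGFP-treated mice and 8.51, 8.36 and 8.48 in the NeuroD-EGFP-treated mice. All 3 NeuroD-EGFP-treated mice lay between these mice and EGFP mouse 3, which was the lowest of all. With 6 mice the difference was -0.29 (SE 0.21, 95% confidence interval -0.79 to 0.21, limma adjusted p = 0.93). Without EGFP mouse 3 it was -0.51 (SE 0.14), a level 1.43-fold higher in the controls, with an unadjusted p of 0.0081 and a limma adjusted p of 0.21. Without EGFP mouse 1 it was -0.15 (SE 0.22) and without EGFP mouse 2 -0.19 (SE 0.24), so its size depended on single controls.

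Srxn1 was read by 3 probes that moved together across the mice. The brightest had levels of 10.40, 10.65 and 11.59 in the EGFP-treated mice and 10.62, 11.01 and 10.96 in the NeuroD-EGFP-treated mice. The second had 9.06, 9.16 and 10.56 against 9.12, 9.54 and 9.56, and the third 7.98, 8.20 and 9.56 against 8.0, 8.62 and 8.70. On all 3 probes EGFP mouse 3 was the highest and EGFP mouse 1 the lowest. EGFP mouse 3 exceeded the mean of the other 5 mice by 1.82-fold, 2.42-fold and 2.40-fold on the 3 probes, and for the brightest probe 4.05% of all genes lay as far or farther above. The differences between groups were -0.018 (SE 0.31, limma adjusted p = 1), -0.19 (SE 0.40) and -0.14 (SE 0.42). Without EGFP mouse 3 they were 0.34 (SE 0.18, limma adjusted p = 0.47), 0.30 (SE 0.18) and 0.35 (SE 0.24), so the sign of all 3 turned with this mouse.

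Nqo1, often used as a readout of NRF2 activity, did not separate the groups. Its brighter probe had levels of 8.28, 7.63 and 8.18 in the EGFP-treated mice and 8.05, 7.96 and 7.72 in the NeuroD-EGFP-treated mice. All 3 NeuroD-EGFP-treated mice lay within the range of the controls. The difference was -0.12 (SE 0.21, 95% confidence interval -0.61 to 0.37, limma adjusted p = 0.97), and it was -0.047 without EGFP mouse 3. The second probe, detected in 1 EGFP-treated and 2 NeuroD-EGFP-treated mice, differed by 0.092 (SE 0.24), and by 0.19 without EGFP mouse 3.

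**Figure D2:**
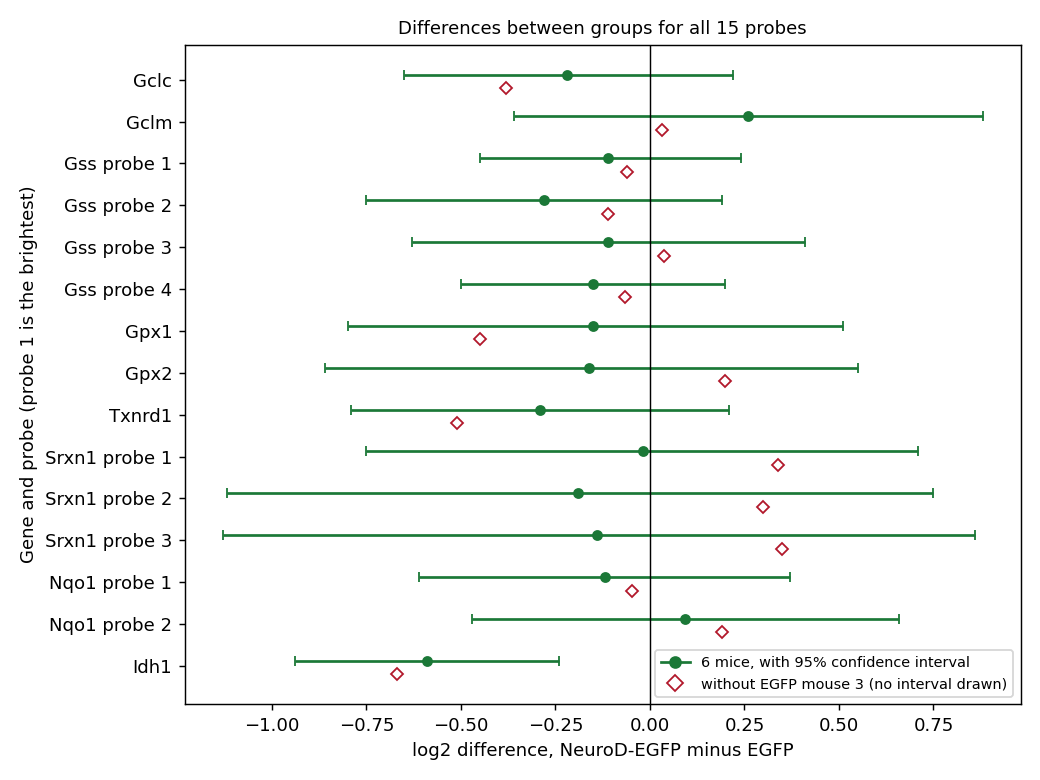
Difference in log2 intensity between the groups, NeuroD-EGFP minus EGFP (horizontal axis), for each of the 15 probes (vertical axis). Green points with bars are the estimate from 6 mice with its 95% confidence interval and open red diamonds are the estimate without EGFP mouse 3. The interval of Idh1 (-0.94 to -0.24) leaves out 0 before adjustment, and the 3 Srxn1 probes, Gpx2 and probe 3 of Gss change sign without EGFP mouse 3.

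Idh1 had levels of 11.99, 11.73 and 11.62 in the EGFP-treated mice and 11.21, 11.20 and 11.15 in the NeuroD-EGFP-treated mice. The lowest control was 0.41 above the highest NeuroD-EGFP-treated mouse, and EGFP mouse 1 was the highest of all. The deposited signals before normalization kept this order, at 4931, 3649 and 3091 in the controls and 2317, 2120 and 1895 in the NeuroD-EGFP-treated mice. Those signals are not scaled, and the NeuroD-EGFP arrays were dimmer as a whole. Their 75th percentiles of signal were 80.3 to 94.2, against 98 to 122 in the controls. The means were 11.78 ± 0.19 and 11.19 ± 0.033 (SD, n = 3), a level 1.51-fold higher in the controls. The difference was -0.59 (SE 0.15, 95% confidence interval -0.94 to -0.24), with an unadjusted p of 0.005 and a limma adjusted p of 0.84. By unadjusted p Idh1 was the 68th of 10777 genes. An exact permutation test of its 6 values gave a two-sided p of 0.1, the smallest that 3 mice against 3 allow. Any gene whose groups do not overlap reaches that value, as 1225 of 10777 genes did, so the test only restates the separation.

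The value of Idh1 did not rest on the mouse with the departing markers. Without EGFP mouse 3 the difference was -0.67 (SE 0.15, limma adjusted p = 0.16). Leaving out each other mouse in turn it stayed at or below -0.49, the value without EGFP mouse 1, in which the interferon-stimulated genes stood highest. Idh1 was read by 1 probe only, so no second probe of the array bears on it.

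With all mice included, the groups also differed in their spread. The SD among controls was larger than that among NeuroD-EGFP-treated mice for 8 of 9 genes, Gss being the exception, where 74.4% of all genes showed this order. The median SD over the 9 genes was 0.39 in the controls and 0.16 in the NeuroD-EGFP-treated mice, beside 0.26 and 0.14 over all genes. Without EGFP mouse 3, the SD was larger among the remaining controls for 3 of 9 genes. That SD rests on fewer mice than the SD of the NeuroD-EGFP-treated mice, and no share of all genes is given for this setting. Whether the larger spread of the controls depended on EGFP mouse 3 therefore cannot be read from this count. EGFP mouse 3 lay at least 0.5 from the mean of the other mice for 4 of 9 genes (Gclm, Gpx1, Gpx2 and Srxn1), which held for 21.7% of all genes. It was the highest mouse for Gss, Gpx2 and Srxn1 and the lowest for Gclm, Gpx1 and Txnrd1, where 26.7% of all genes were highest and 23.7% lowest in this mouse. The part of the enterocyte, Paneth and smooth muscle values of this mouse in these levels was not tested.

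**Figure D3:**
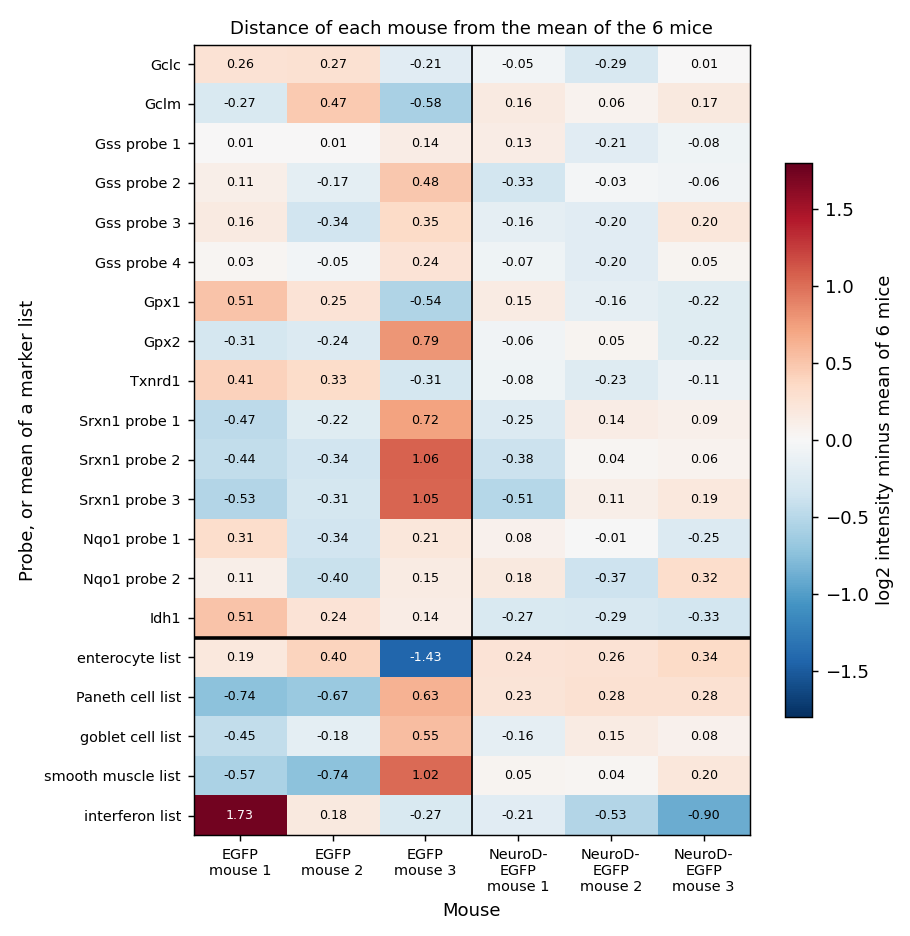
Distance of each mouse (columns) from the mean of the 6 mice, in log2 intensity, for the 15 probes (rows above the black line) and for the means of 5 marker lists (rows below it), with the value printed in each cell and red for above and blue for below. The EGFP mouse 3 column holds the highest Gpx2 and Srxn1 values and the lowest Gclm and Gpx1 values, beside an enterocyte list at -1.43 and a smooth muscle list at 1.02.

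With EGFP mouse 3 left out, Gclc, Gpx1, Txnrd1 and Idh1 were all lower in the 3 NeuroD-EGFP-treated mice than in both remaining controls. All 4 had an unadjusted p under 0.05 and none passed after adjustment (limma adjusted p = 0.16 to 0.35). In this setting 6.71% of all genes were lower and 7.26% higher at an unadjusted p under 0.05, and 0.126% of probes (24 of 19099) passed an adjusted p of 0.05, none of them a member. Groups did not overlap for 4 members that were lower and for Gpx2, which was higher, where 15.7% of all genes were lower and 16.7% higher. The median over the 9 genes was -0.061 without this mouse, with Gss as the middle gene. The 2 remaining controls were also below the NeuroD-EGFP-treated mice in the Paneth cell list, at -0.74 and -0.67 against 0.23 to 0.28, and in the smooth muscle list, at -0.57 and -0.74 against 0.035 to 0.20. They were likewise below in the goblet cell list (-0.45 and -0.18 against -0.16 to 0.15), the neutrophil and macrophage list (-0.058 and -0.44 against 0.021 to 0.13) and the adipocyte and mesothelium list (-1.05 and -0.54 against -0.28 to 0.79). They were above in the interferon-stimulated list (1.73 and 0.18 against -0.90 to -0.21) and in the T and NK cell list (0.58 and 0.28 against -0.60 to 0.14). The same held for the pancreatic acinar cell list, of which only 2 genes were tested (-0.093 and 1.25 against -0.55 to -0.16). Enterocyte markers overlapped, at 0.19 and 0.40 in these controls and 0.24 to 0.34 in the NeuroD-EGFP-treated mice. The part of these lists in the 4 lower genes was not tested.

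Beyond the 10 genes, 75 further genes of the same pathway were listed by role, of which 71 had a named probe and 64 were tested. Their differences were even, with 32 positive and 32 negative and a median of -0.0045. None passed an adjusted p of 0.05. At an unadjusted p under 0.05, 1 was higher (Mgst1) and 4 were lower (Chac2, Cth, Abcc1 and Abcc3), where 2.20% of all genes were higher and 2.56% lower. Groups did not overlap for 3 of the 64 genes that were higher and 4 that were lower, near the shares of 5.44% and 5.93% over all genes. With EGFP mouse 3 left out, an unadjusted p under 0.05 was reached by 3 of these genes with positive and 8 with negative differences, where the shares over all genes were 7.26% and 6.71%.

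Among the regulators, none of 7 tested had an unadjusted p under 0.05. Nfe2l2, the NRF2 gene itself, had levels of 10.05, 9.79 and 9.27 in the EGFP-treated mice and 9.43, 9.86 and 9.79 in the NeuroD-EGFP-treated mice, a difference of -0.016 (SE 0.23, limma adjusted p = 1). Without EGFP mouse 3, the lowest of the 6, it was -0.23 (SE 0.19, limma adjusted p = 0.64). Keap1, its inhibitor, differed by -0.067 (SE 0.15, limma adjusted p = 0.98), and by -0.075 without that mouse. These are RNA levels, and NRF2 is largely controlled through the stability of its protein, which was not measured. Mafk, a small MAF partner, was higher in all NeuroD-EGFP-treated mice (7.47, 7.42 and 7.55) than in the controls (6.88, 7.40 and 7.01), by 0.39 (SE 0.17, limma adjusted p = 0.92) and by 0.34 without EGFP mouse 3. Mafg, another small MAF, differed by -0.24 (SE 0.18) and by -0.15 without that mouse. Bach1, a repressor that competes for the same elements, differed by 0.29 (SE 0.32) and by 0.46 without it, while its second probe gave -0.13 (SE 0.22).

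The enzymes next to the members gave a mixed picture. Mgst1, a membrane-bound glutathione transferase that also reduces lipid peroxides, had levels of 11.92, 11.88 and 12.12 in the EGFP-treated mice and 12.43, 12.98 and 12.97 in the NeuroD-EGFP-treated mice. It was higher in every NeuroD-EGFP-treated mouse, by 0.82 (SE 0.19, limma adjusted p = 0.8), a 1.76-fold difference. Its second probe gave 0.89 (SE 0.22), and without EGFP mouse 3 the probes gave 0.89 and 1.00. Chac2, an enzyme that degrades glutathione, had levels of 6.68, 6.32 and 6.14 in the controls and 5.72, 5.87 and 5.82 in the NeuroD-EGFP-treated mice. Its groups did not overlap, with a difference of -0.57 (SE 0.17, limma adjusted p = 0.92) and of -0.69 without EGFP mouse 3. Cth, which makes cysteine from cystathionine and so feeds glutathione synthesis, differed by -0.47 (SE 0.18, limma adjusted p = 0.92), with EGFP mouse 3 just below the highest NeuroD-EGFP-treated mouse, and by -0.59 without that mouse. Ggct, a cyclotransferase that acts on gamma-glutamyl peptides from glutathione breakdown, differed by 0.57 (SE 0.28, limma adjusted p = 0.92) with overlapping groups, and by 0.72 without EGFP mouse 3. Its other 3 probes were also positive, at 0.39, 0.40 and 0.84.

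In the thioredoxin and peroxiredoxin group, 0 of 11 tested genes had an unadjusted p under 0.05. Prdx1, a peroxiredoxin, was 13.97, 14.02 and 13.92 in the controls and 13.83, 13.77 and 13.82 in the NeuroD-EGFP-treated mice. The groups did not overlap, but the difference was small at -0.16 (SE 0.13, limma adjusted p = 0.93) and -0.19 without EGFP mouse 3, and its second probe gave -0.078 (SE 0.22). Prdx3, the mitochondrial peroxiredoxin, differed by -0.29 (SE 0.18) and by -0.26 without that mouse.

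Beside Idh1, 8 other genes for NADPH supply were tested. None had an unadjusted p under 0.05, and 5 differences were positive. Me1, the cytosolic malic enzyme, differed by -0.30 (SE 0.18, limma adjusted p = 0.92) and by -0.37 without EGFP mouse 3. Tkt, a transketolase linked to the pentose phosphate pathway, was higher in all NeuroD-EGFP-treated mice on its brightest probe, by 0.23 (SE 0.14), and by 0.25 without EGFP mouse 3. Its other probes went the other way, at -0.14 (SE 0.19) and -0.11 (SE 0.21). Nnt differed by 0.49 (SE 0.25) on its brightest probe, and by 0.23 without EGFP mouse 3. Its second probe gave 0.22 (SE 0.19), and 0.38 without that mouse. C57BL/6J mice are known to carry a deletion in this gene, so the low signal of the brightest probe (log2 5.16 to 6.32) has no clear reading. Whether the difference of Idh1 was larger than that of these genes was not tested.

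Genes for superoxide, peroxide, haem and iron showed 0 of 8 at an unadjusted p under 0.05. Sod1, the cytosolic superoxide dismutase, differed by -0.17 (SE 0.17) and by -0.25 without EGFP mouse 3. Blvrb, biliverdin reductase B, differed by 0.16 (SE 0.15) and by 0.073 without that mouse. Hmox1, haem oxygenase 1 and a well-known NRF2 target, had a probe that was detected on 0 of the 6 arrays and was not tested. Among 10 detoxication and export genes, 8 were negative, with a median of -0.30. Abcc3, an exporter of conjugated bile salts and glucuronides, had levels of 9.47, 9.21 and 9.59 in the controls and 9.13, 8.80 and 8.73 in the NeuroD-EGFP-treated mice, a difference of -0.54 (SE 0.18, limma adjusted p = 0.92), and of -0.45 without EGFP mouse 3. Abcc1, an exporter of glutathione conjugates, also differed by -0.54 (SE 0.20), and by -0.56 without that mouse, but it was detected in 1 of 3 NeuroD-EGFP-treated mice and its second probe gave -0.024 (SE 0.22). Cbr3, a carbonyl reductase, differed by -0.64 (SE 0.35) with overlapping groups, and by -0.41 without EGFP mouse 3. Ugdh, which makes UDP-glucuronate, had levels of 7.09, 6.94 and 6.01 in the controls and 6.18, 6.22 and 6.14 in the NeuroD-EGFP-treated mice. EGFP mouse 3 was the lowest of all and the other controls were the highest, with a difference of -0.50 (SE 0.28, limma adjusted p = 0.92) that became -0.83 (SE 0.14, limma adjusted p = 0.12) without EGFP mouse 3.

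**Figure D4:**
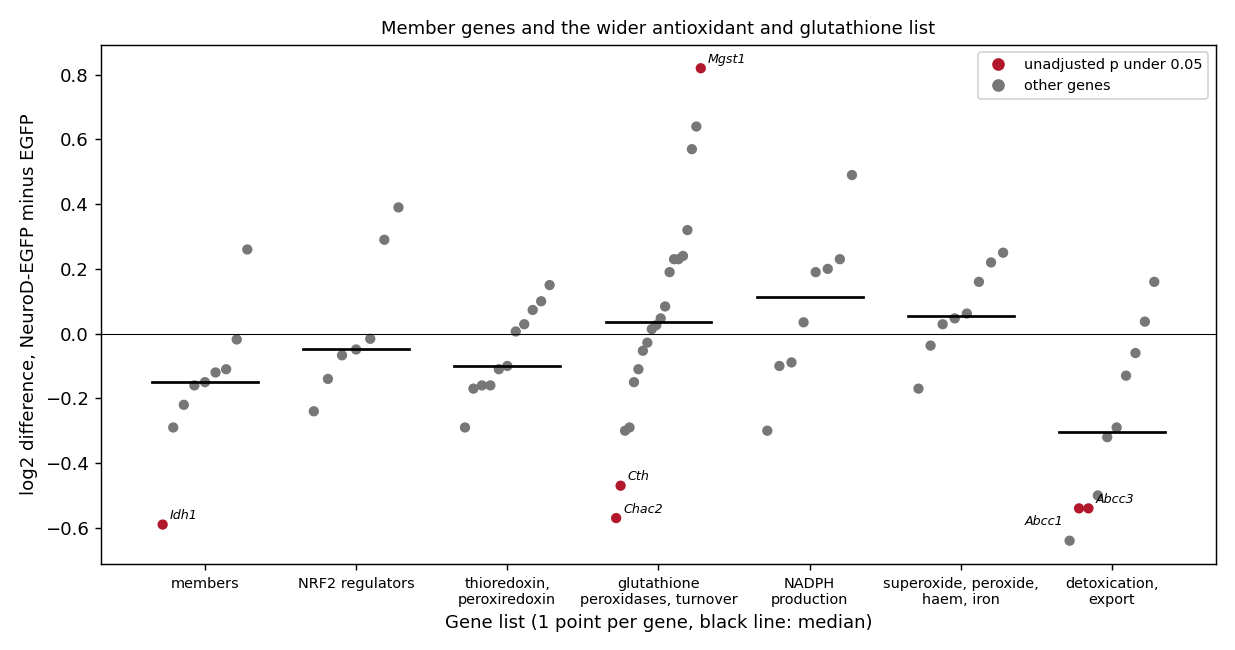
Difference in log2 intensity, NeuroD-EGFP minus EGFP (vertical axis), for the 9 measured members and the 64 tested genes of the wider list, by role (horizontal axis), with 1 point per gene and a black line at each median. Red points have an unadjusted p under 0.05 (Idh1, Mgst1, Chac2, Cth, Abcc1 and Abcc3), none has an adjusted p under 0.05, and the medians lie between -0.30 and 0.11.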

How the data were processed

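Jejunum RNA of 3 EGFP-treated and 3 NeuroD-EGFP-treated mice was copied into Cy3-labelled cRNA and read on Illumina Mouse WG-6 beadchips, and samples were grouped by the labels. The authors deposited background-subtracted intensities per probe, with a detection p-value for each. The authors also deposited log2 values, equal to log2 of those intensities within 1.23e-06 where the signal is above 0, set to 4 elsewhere, and not scaled between arrays. The scanner software is not given in the sources used here.

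Normalization used neqc (R 4.3.3, limma 3.58.1) with an offset of 16 and quantile scaling. The 19099 probes that were detected (p-value under 0.05) on 3 or more arrays were tested with lmFit and eBayes, with Benjamini-Hochberg adjustment. Names were taken from the annotation of the platform and updated with RefSeq symbols (34885 probes had 1 symbol, 18 several and 10378 none). All 10 members are named, and from each role group of the wider list 2 to 4 genes of lowest p, with Nfe2l2, Keap1 and Hmox1. The wider list and marker lists were written from general knowledge. The members and all lists were chosen with earlier results of these data known. Other settings tried were the background correction, offset, scaling, detection filter, array weights, a replicate block, the methods' t-test and leaving out each mouse. Scripts were tested on simulated data. The number of arrays limits the precision.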

Additional observations from a re-analysis of the deposited data

How the results depend on the processing

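No member gene passed an adjusted p of 0.05 in any of the 17 alternatives, and 0 probes passed in all of them except without EGFP mouse 3, where 24 did. Leaving out each mouse in turn gave 0 to 24 such probes, a member median of -0.20 to -0.061 and a wider list median of -0.05 to 0.023. In the authors' unscaled log2 values the medians were -0.39 and -0.28, where the median over all 19099 tested probes was -0.27. Gclm turned to -0.021 there. With array weights Gpx2 was 0.061 and Srxn1 0.24. Leaving out single mice, Nqo1 ranged from -0.32 to 0.0014, Gpx1 from -0.45 to 0.068, the latter without EGFP mouse 1, Gpx2 from -0.35 to 0.20 and Srxn1 from -0.26 to 0.34, with 0.10 without NeuroD-EGFP mouse 1. The cause of these turns was not tested. Leaving out single mice also moved Gclc from -0.38 to -0.13, Txnrd1 from -0.51 to -0.15 and Gclm from 0.033 to 0.56. Idh1, Gclc, Gss and Txnrd1 kept a negative difference in every alternative run, Idh1 from -0.86 to -0.49. Members at an unadjusted p under 0.05 numbered 1 to 4, and wider list genes 3 to 11. That count, added after seeing the data, was highest without EGFP mouse 3 for both lists.

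Same-numbered mice correlated at 0.302, -0.0903 and 0.165 in their deviations from the group means, and mice of unlike number at -0.269 to 0.0982. With 3 mice per group these values cannot show whether the numbers pair the samples. The replicate block gave 0 member genes past an adjusted p of 0.05, a member median of -0.15 and an Idh1 difference of -0.59 (SE 0.16), and changed no call at an adjusted p of 0.05.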
